A study of Mus musculus with 4 samples.

Results

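Txnip and Arrdc3 are genes of the alpha-arrestin family, and each carried 1 of the 3 antibody peaks of highest fold in a map of Foxo1 binding in mouse CD4+ T cells. The peaks described here were chosen by their summit position in 2 lists, within mm9 windows that hold each gene with flanks of about 50 kb. The window of Txnip runs over chr3:96311000-96417000 and that of Arrdc3 over chr13:80973000-81086000. They held 6 of the 3230 peaks of both lists, namely 4 of 2507 from the antibody ChIP and 2 of 723 from the biotin ChIP. The genes were picked with earlier results of these data known, the high folds among them, so all counts, ranks and folds below are descriptions without a test.

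The study mapped Foxo1 in CD4+ T cells by chromatin immunoprecipitation followed by sequencing (ChIP-seq), and it lists 4 samples with 1 library each. In the antibody ChIP, endogenous Foxo1 of C57BL/6 mice was pulled down with Abcam antibody Ab39670. In the biotin ChIP, the cells came from Foxo1tagBirA mice of the same labelled strain, in which the ligase BirA can attach biotin to a tag on Foxo1, and streptavidin recovered the complexes. An input belongs to each ChIP. The labels do not give the age of the mice, any treatment, the number of animals per library or the promoter that drives BirA. Peak lists hold no expression values, so the labelled cell type could not be checked against marker genes. With a single library per group, no value below carries a replicate error, and the read depth behind each peak is unknown.

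Foxo1 is a forkhead transcription factor that is kept out of the nucleus when PI3K and Akt signal downstream of antigen, costimulatory or growth factor receptors, and that acts in the nucleus of resting T cells. Alpha-arrestins share an arrestin fold with the beta-arrestins and act as adaptors that bring membrane proteins to NEDD4-type ubiquitin ligases. Txnip (thioredoxin-interacting protein, RefSeq gene 56338) binds thioredoxin and lowers glucose uptake by promoting the internalisation of glucose transporters. Arrdc3 (arrestin domain containing 3, RefSeq gene 105171) takes part in the trafficking of receptors such as the beta-adrenergic receptor. FOXO factors bind variants of the sequence TTGTTTAC, which reads GTAAACAA on the opposite strand.

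The 250 bases before the first RefSeq start of each gene are shown because they show how the genes differ in sequence features linked to FOXO factors and to glucose. They come from RefSeq on GRCm38.p6, at chr3:96557707-96557956 for Txnip and chr13:80883134-80883383 for Arrdc3, both on the plus strand. These positions belong to another build than the mm9 peaks and cannot be set against them. Capitals mark the motifs named in the paragraphs after the sequences.
Txnip: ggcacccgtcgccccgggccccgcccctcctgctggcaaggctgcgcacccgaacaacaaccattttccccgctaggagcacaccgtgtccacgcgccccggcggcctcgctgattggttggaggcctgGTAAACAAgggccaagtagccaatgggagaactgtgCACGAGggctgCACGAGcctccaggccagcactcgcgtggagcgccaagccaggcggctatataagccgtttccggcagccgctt
Arrdc3: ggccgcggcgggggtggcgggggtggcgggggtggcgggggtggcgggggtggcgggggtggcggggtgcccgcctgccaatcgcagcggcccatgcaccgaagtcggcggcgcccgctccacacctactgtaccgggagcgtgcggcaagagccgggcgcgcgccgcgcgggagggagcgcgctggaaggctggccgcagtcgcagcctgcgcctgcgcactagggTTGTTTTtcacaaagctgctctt

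The Txnip promoter held 1 match to the forkhead motif TTGTTTAC, on the opposite strand, from 121 to 114 bases before the start. In the RefSeq table, whose promoters run from 250 bases before to 50 bases after a start, 403 of 32851 (1.23%) held this 8-letter motif on either strand. The shorter motif TGTTTAC, which the 8-letter motif contains, was present in 1199 promoters (3.65%), Txnip included. None of the 3 RefSeq promoters of Arrdc3 held either motif. Those of the first and the second start of Arrdc3, which lie 38 bases apart and so overlap, shared 1 match to TTGTTTT, the core of the insulin response sequence that FOXO factors also bind, from 23 to 17 bases before the first start. This motif was searched after the sequences had been seen, and 2963 promoters (9.02%) held it, so it is frequent. It was not found in the Txnip promoter. A match is a stretch of letters and not a measured site. Since the peaks lie on mm9, no motif could be looked for inside a peak.

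The Txnip promoter also held the hexamer CACGAG at a pair of places on the same strand, from 85 to 80 and from 74 to 69 bases before the start, with 5 bases between them. This arrangement is that of the carbohydrate response element, through which the glucose-sensing factors MondoA and ChREBP, with their partner Mlx, drive Txnip. It was likewise searched after the sequences had been seen. A single CACGAG on either strand was present in 2127 of 32851 promoters (6.47%), and this exact pair in 1, that of Txnip. Since the pair was searched as it stands in the Txnip promoter, that match was fixed in advance. Other forms of the element were not searched as pairs, so the count does not show how many promoters hold such an element. The last base of the forkhead match and the first base of the nearer hexamer lay at positions -114 and -85 from the start.

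Of the 6 alpha-arrestin genes (Txnip and Arrdc1 to Arrdc5), all 6 matched the table, with 8 promoters, and the 8-letter forkhead motif was found in 1 of the genes, Txnip, where 1.32% of all 27025 genes in the table had it. CACGAG was found in 3 of the 6 genes, Txnip, Arrdc1 and Arrdc2, where 7.47% of all genes had it. This hexamer was searched after the Txnip sequence had been seen, so its match in Txnip was fixed in advance and nothing is read from this count. The E-box CACGTG, the core site of many basic helix-loop-helix factors and present in 8.09% of all genes, was found in 1 of the 6, Arrdc4. None of the 5 motifs was found in the 6 promoters of the 4 thioredoxin system genes, which encode the thioredoxins (Txn1, Txn2) and their reductases (Txnrd1, Txnrd2). With at most 10.4% of all genes holding any one of these motifs, that of TTGTTTT being the highest share, a count of 0 among 4 genes says little. Peaks at these other genes were not analysed here, because no mm9 annotation was at hand.

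**Figure D1:**
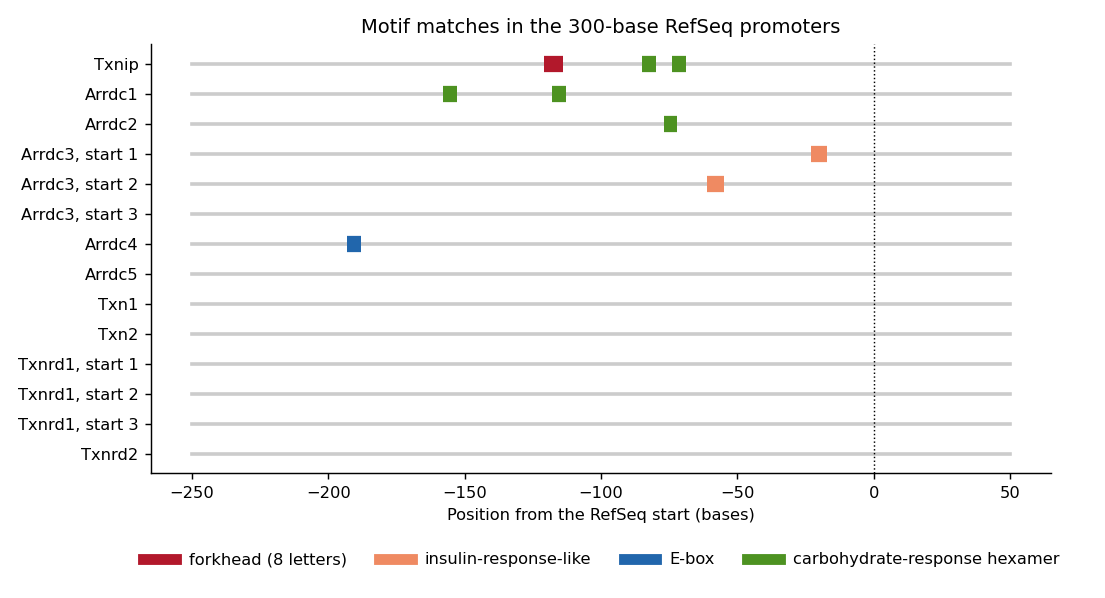
Matches to 4 motifs in the RefSeq promoters of 6 alpha-arrestin and 4 thioredoxin system genes; the x axis is the position in bases from the RefSeq start (dotted line), each grey line is 1 promoter of 300 bases, and coloured blocks are matches on either strand. Txnip holds 1 forkhead match and a pair of carbohydrate-response hexamers, Arrdc3 the insulin-response-like match at its first and second start, and the thioredoxin system genes none of the motifs.

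At Txnip, the antibody list held a peak at chr3:96361724-96361742 (mm9) with a fold of 57.6, as given by the authors. It ranked 1 of 2507, and the peak of rank 2, elsewhere in the genome, had a fold of 53.2. The biotin list held 1 peak at this gene, at chr3:96361705-96361820, with a fold of 15.3 and rank 22 of 723. A second antibody peak lay at chr3:96360995-96361101 with a fold of 8.20 and rank 1548, so 38.3% of antibody peaks had a lower fold. No biotin peak overlapped it, and the nearest one, the peak just named, began after a gap of 603 bp. Within the Txnip window, the higher antibody peak thus had 7.03 times the fold of the lower one, and their summits (96361742 and 96361078) lay 664 bp apart.

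At Arrdc3, the antibody list held a peak at chr13:81025530-81025590 with a fold of 52.5 and rank 3 of 2507, and the peak of rank 4 had a fold of 52.4. The only biotin peak in the window, at chr13:81025478-81025592, had a fold of 13.7 and rank 35 of 723. The second antibody peak lay at chr13:81022604-81022672 with a fold of 11.0 and rank 939, above 62.5% of the list. It had no biotin partner either, with a gap of 2805 bp to the biotin peak. The ratio of folds within the window was 4.78, and the summits (81025531 and 81022639) lay 2892 bp apart.

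**Figure D2:**
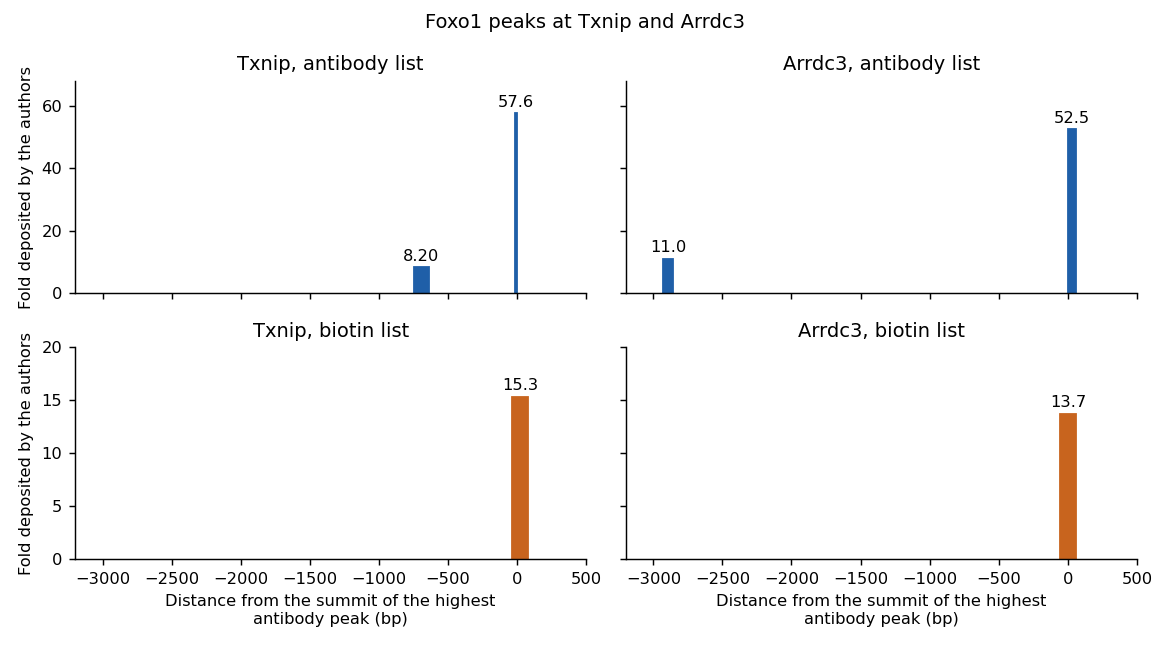
Peaks in the windows of Txnip (left) and Arrdc3 (right) in the antibody list (top) and the biotin list (bottom); the x axis is the distance in bp from the summit of the highest antibody peak, the y axis is the deposited fold, and each bar spans the peak from its first to its last base. Each gene shows a high antibody peak with a biotin peak at the same place (antibody folds 57.6 and 52.5, biotin folds 15.3 and 13.7) and a lower antibody peak 664 or 2892 bp to the left without one.

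Both genes therefore showed the same makeup in these lists. Each had 1 antibody peak that overlapped a biotin peak by at least 1 bp and 1 of lower fold, on the side of lower coordinates, that did not. Because both genes are annotated on the plus strand, the lower peak lay upstream of the higher one in the direction of transcription. Of the 4 antibody peaks at these genes 2 were shared with the biotin list, where 13.6% of all antibody peaks were (341 of 2507, exact Clopper-Pearson 95% interval 12.3 to 15.0%). Both biotin peaks were shared, where 47.2% of all biotin peaks were (43.5 to 50.9%). The genes were picked for such peaks, so nothing is read from these counts. All 4 shared intervals, and neither lower antibody peak, also appeared in the deposited list of common peaks (682 intervals), which is attached to the antibody input sample and repeats ChIP peaks; it holds no input signal.

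The sources give no start sites on mm9, and the windows place the gene ends only roughly. With flanks of 50 kb the lower ends would be near 96361000 for Txnip and 81023000 for Arrdc3. The RefSeq gene lengths of 3.90 and 12.7 kb, from GRCm38, leave mean flanks of 51.0 and 50.2 kb. How the flanks split between the sides is unknown, so the error of these ends is unknown too. At Txnip both antibody summits lay within 1 kb of that point. At Arrdc3 the lower antibody peak lay near the rough lower end and the higher one beyond it, at higher coordinates. The RefSeq starts of Arrdc3 span 2711 bp on GRCm38, and since the peaks lie on mm9 they could not be matched to these starts. Whether each peak lies at a start was not tested. By RefSeq gene order, the next protein-coding genes are Hjv and Polr3gl for Txnip and Nr2f1 and Adgrv1 for Arrdc3. Genes of other kinds come closer in this order, namely Gm15441 before Txnip and Gm46388 and 5430425K12Rik on either side of Arrdc3. Distances to these genes were not computed, and a peak in a window need not act on the gene that names it.

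In each pair the antibody peak lay wholly inside the biotin peak, as in 103 of the 341 shared pairs (30.2%). The Txnip antibody peak spanned 19 bp, and 122 of 2507 antibody peaks (4.87%) were narrower. Its biotin peak spanned 116 bp, or 6.11 times as much, and 20 of the 341 pairs had a larger ratio. At Arrdc3 the antibody peak was 61 bp and the biotin peak 115 bp wide, a ratio of 1.89, against a median ratio of 1.05 over all shared pairs. High antibody peaks were often narrow, since the 50 of highest fold had a median width of 47 bp (range 7 to 130 bp) where the whole list had 90 bp. The lower antibody peaks at Txnip and Arrdc3 were 107 and 69 bp wide.

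Summits of the pairs lay 26 bp apart at Txnip and 20 bp apart at Arrdc3, and the median over all 341 pairs was 20 bp. The biotin summit had the higher coordinate at Txnip and the lower one at Arrdc3. Each high antibody peak had its summit at an edge. At Txnip the summit was the last base of the peak, which held for 58 antibody peaks (2.31%), and at Arrdc3 it was 1 base after the first. In all, 121 antibody peaks (4.83%) had the summit on, or 1 base from, an end. Where in the fragments' pileup these edges fall was not tested, since reads were not analysed here.

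**Figure D3:**
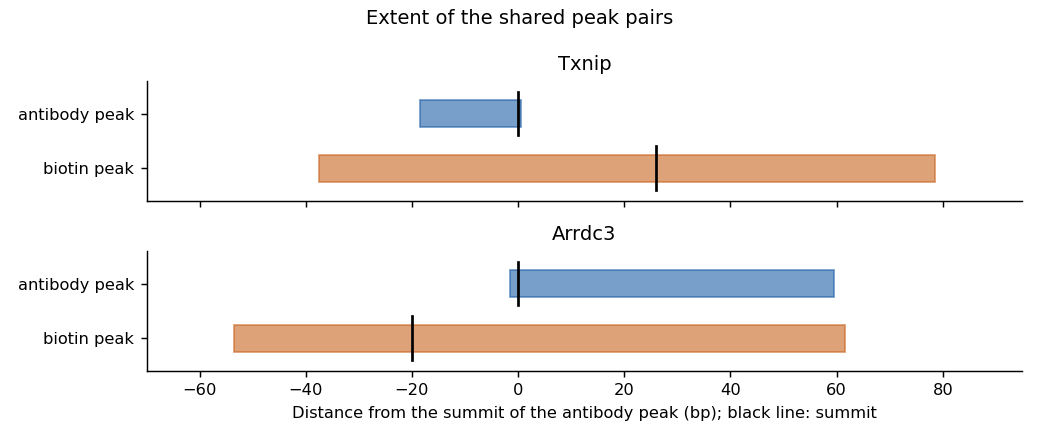
Extent of the overlapping peaks at Txnip (top) and Arrdc3 (bottom); the x axis is the distance in bp from the antibody summit, blue bars are antibody peaks, orange bars biotin peaks, and black lines their summits. Both antibody peaks (19 and 61 bp) lie inside wider biotin peaks (116 and 115 bp), with the antibody summit at the right edge at Txnip and near the left edge at Arrdc3.

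The deposited p-values of these peaks were heavily tied, so their order says little. A p-value of 0 was listed for 406 antibody peaks, among them both high peaks and the lower Txnip peak with its fold of 8.20. The lower Arrdc3 peak had the higher fold (11.0) and a p-value of 2.22e-16, which 423 antibody peaks held, while 662 had a lower one. Whether 0 and 2.22e-16 differ by more than numerical rounding was not tested. Both biotin peaks also had a p-value of 2.22e-16, as 100 biotin peaks did, and 214 had a lower one. By this value the biotin peaks of Txnip and Arrdc3 were tied.

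**Figure D4:**
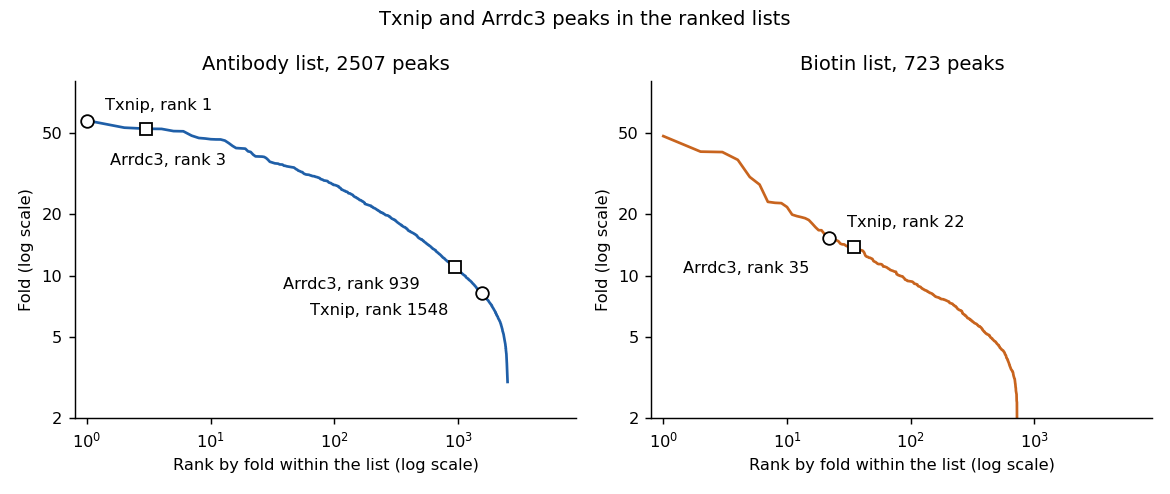
Deposited fold (y axis, log scale) against rank by fold (x axis, log scale) for all peaks of the antibody list (left, n = 2507) and the biotin list (right, n = 723); circles mark Txnip peaks and squares Arrdc3 peaks. The high antibody peaks stand at ranks 1 and 3 and the lower ones at ranks 939 and 1548, while the biotin peaks stand at ranks 22 and 35.

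Among the 341 shared pairs, no pair exceeded that of Txnip in both folds, which its antibody rank of 1 fixes. A higher biotin fold with a lower antibody fold was held by 16 pairs. For Arrdc3, 2 pairs were higher in both folds, the most that its antibody rank of 3 allows, and 25 were higher in the biotin fold alone. The folds of the Txnip pair were 1.10 times those of the Arrdc3 pair in the antibody list and 1.11 times in the biotin list. With no replicate, whether these small differences exceed experimental error is unknown.

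Likeness to other pairs was measured as the distance in log2 antibody fold and log2 biotin fold, each divided by its standard deviation over the shared pairs. The pair nearest to that of Txnip was that of Arrdc3, at a distance of 0.287. The next were a pair at chr5:87233281-87233287 (antibody fold 52.4, biotin fold 17.3, distance 0.310) and one at chr6:31166494-31166609 (47.3 and 15.0, distance 0.366). The pair nearest to that of Arrdc3 was at chr15:79758207-79758336 (48.6 and 13.8, distance 0.144), followed by the same chromosome 6 pair (0.271) and by Txnip. Both genes were picked with their high folds known, so some of their likeness follows from that choice. This likeness rests on a single value per list and says nothing of shared control.

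**Figure D5:**
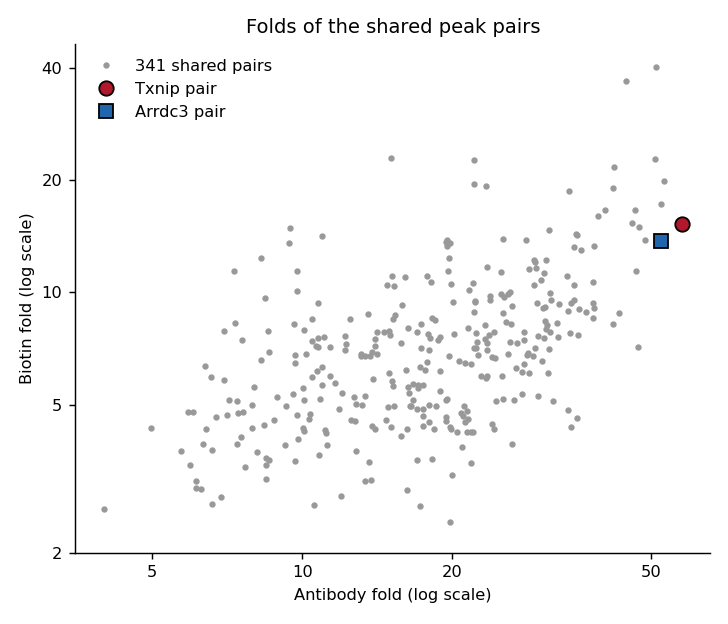
Biotin fold (y axis, log scale) against antibody fold (x axis, log scale) of the 341 peak pairs that overlap by at least 1 bp; each point is 1 pair, the circle is Txnip and the square Arrdc3. Both lie at the right end of the cloud, at antibody folds of 57.6 and 52.5, below the pairs with the highest biotin folds.

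A lower antibody peak near a high one was also seen at other strong sites. Within 3 kb of the summit, a distance set after the positions were known, 316 of 2507 antibody peaks (12.6%, 11.3 to 14.0%) had another antibody peak, and so did 53 of the 341 shared ones (15.5%, 11.9 to 19.8%). Of the 10 antibody peaks of highest fold, 5 had one, and so did 13 of the 50 of highest fold (26.0%, 14.6 to 40.3%). Both counts include Txnip and Arrdc3, which were bound to be counted because the distance was set with their summits known. The others of the 5 lay on chromosomes 6, 7 and 8. In all 5 of the first 10 the nearby peak had a lower fold, which the choice by rank nearly fixes, and no biotin partner. Next, peaks were counted whose nearby antibody peaks were all of lower fold and included at least 1 without a biotin partner. They made up 146 of all 2507 antibody peaks (5.82%), 39 of the 341 shared ones (11.4%) and 12 of the 50 of highest fold (24.0%). A peak of high fold more easily has only lower ones nearby, so the choice by fold itself raises such a share. Lacking a biotin partner is also the usual state, as only 13.6% of antibody peaks were shared. These shares were not tested against each other. Neighbouring peaks count each other, so the intervals in this paragraph, which treat peaks as independent, may be too narrow. Whether a lower peak near a high one marks a separate site was not tested.

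The spans between neighbouring peaks given next were added after the positions had been seen. Each high antibody peak had 1 other antibody peak within 50 kb, as did 665 antibody peaks (26.5%), and each biotin peak had no other biotin peak in that range, like 607 biotin peaks (84.0%). No summit lay near a window edge, the closest being 49639 bp from it. Outside the Txnip window, the next antibody peaks lay 280 kb below (fold 6.52) and 1071 kb above (fold 8.99) the highest summit, a span of 1.35 Mb, and 47.9% of antibody peaks with peaks on either side had a longer one. The next biotin peaks lay 453 kb below (fold 3.96) and 1123 kb above (fold 3.19). That span was 1.58 Mb, and 80.6% of biotin peaks with peaks on either side had a longer one.

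Arrdc3 lay in a stretch with few listed peaks. Outside its window, the next antibody peaks were 7151 kb below (fold 7.40) and 897 kb above (fold 10.5) the highest summit, a span of 8.05 Mb that was exceeded for 5.45% of antibody peaks. In the biotin list the next peaks were 25289 kb below (fold 7.18) and 13244 kb above (fold 16.7), a span of 38.5 Mb. The median span was 4.97 Mb, and 1 of 680 biotin peaks had a longer one. Mappability and gene density were not analysed here, and their part in these spans was not tested. On its own chromosome the high antibody peak ranked 1 of 112 for Txnip and 1 of 97 for Arrdc3. The biotin peaks ranked 1 of 39 and 2 of 20.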

How the data were processed

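Peak lists of 1 antibody ChIP and 1 biotin ChIP library were used, together with a list of peaks common to both that is attached to the antibody input sample; no file of the biotin input was used here. CASAVA 1.4, Bowtie 0.12.7 and build mm9 are named, with no role, per the submitters' processing notes. For the peak caller and the reference of the fold, the sources used here state nothing. Both list names state a false discovery rate of 0.05. Per the file headers, each peak has a position, a width, a fold (a linear ratio deposited by the authors), a p-value deposited by the authors and a summit. Folds were used within a list only. Starts were counted from 0 and were raised by 1.

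Peaks were assigned to windows by summit and called shared when they overlapped by at least 1 bp. Motifs were searched on both strands of the RefSeq promoters (GRCm38.p6), with Python 3.11.15 and pandas 2.3.3. The overlap and motif searches were tested on simulated data. By the rule for named items, every peak in the windows, the next peak outside and the 3 most similar pairs are given. Intervals cover counting error over peaks only and treat peaks as independent. The genes, lists and motifs were chosen with earlier results of these data known. The common list was used to check which peaks it repeats.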

Additional observations from a re-analysis of the deposited data

How the results depend on the processing

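The windows held 4 antibody peaks, 2 biotin peaks and 2 shared pairs with 20 kb taken off or 50 kb added on each side. Neither change could alter these counts. All summits in the windows lay at least 49639 bp inside an edge, and the nearest peak outside lay 228840 bp beyond one. In the top 50% of each list by fold, 3 antibody peaks were left. In the top 25%, 2 antibody peaks were left, since the lower ones fall below that limit. Counting peaks within 1000 bp as shared gave 3 pairs, as the lower Txnip peak then counts. Ranking by p-value put both high antibody peaks at 203.5 (ties at 0) and both biotin peaks at 264.5, which follows from the ties. On its own chromosome, the high antibody peak of Arrdc3 ranked 1 and the biotin peaks of Txnip and Arrdc3 ranked 1 and 2. Joining peaks within 1000 bp put the biotin peaks at ranks 21 and 34. With the motif TTGTTTT, added after the data were seen, the promoters of Txnip held 0 and those of Arrdc3 held 2 matches (the same bases in overlapping promoters), against 1 and 0 with the forkhead motif. The planned comparison of the proteins was not run, as no protein table was used. No paired analysis was possible because the groups hold a single library each, which also leaves no replicate to drop. Unknown depth limits what the absence of a peak from a list can mean.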
